A study of Mus musculus with 4 samples.

Results

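The podocyte genes examined here were Nphs1, Kirrel, Cd2ap, Magi2, Synpo, Podxl, Ptpro and Wt1, a named list of 8 genes among the 54532 genes counted in each library. They were compared between kidneys of wild-type mice (WT) and of mice without Zbp1 (ZBP1-KO), 2 libraries per genotype and 4 in all. Every animal, of either genotype, had been given 500 µL of pristane, an oil that provokes a lupus-like disease by intraperitoneal injection when 8 weeks old, and kidneys were collected 8 months afterwards. The mice were female and on a C57BL/6J background, and the knockout removed exons 2 to 8 of Zbp1 in the germline, so that every cell type of the kidney carries it. Kidneys of mice without pristane were not analysed here, and the labels do not say whether a library came from 1 animal or from a pool. P-values therefore measure the spread between these libraries. The comparison asks whether the genes of the glomerular filter differ with genotype in a model whose renal readouts include proteinuria.

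Podocytes are the epithelial cells that wrap the capillaries of the glomerulus with interlocking foot processes. The gap between neighbouring foot processes is bridged by the slit diaphragm, in which the immunoglobulin-like proteins nephrin and NEPH1 meet across the gap and are held by adaptors to the actin cytoskeleton. Loss of nephrin or of its adaptors leads to proteinuria, and falling podocyte transcripts are a common sign of podocyte injury. Podocytes are a small minority of kidney cells, and in whole-kidney RNA fewer podocytes and less RNA per podocyte cannot be told apart.

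Total counts ran from 9878776 to 12921925 per library. Mitochondrially encoded genes took 49.5% to 61.5% of them, which left 4003417 to 5782924 counts for all other genes. For the targeted gene, Zbp1, the WT libraries held 94 and 125 counts and the ZBP1-KO libraries 18 and 0. The direction thus followed the labels, with reads still present in ZBP1-KO 1. Its log2 fold change was −3.64, with an unadjusted p of 0.00153 in the edgeR quasi-likelihood test. Zbp1 itself was not called over all genes (adjusted p = 0.999 in edgeR), so a gene can fail this test despite a large difference. The 8 genes together had 2239 to 2939 counts per library. The least covered of them was Magi2, with 25 to 67 counts, and the best covered was Cd2ap, with 822 to 1218. All of them passed the filter on low counts and were among the 14908 genes tested. Levels are given as CPM, counts relative to library size after TMM scaling, and differences as the log2 fold change of ZBP1-KO over WT with its standard error (SE) from edgeR.

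Nephrin, NEPH1 and podocalyxin transcripts overlapped between the genotypes, and of the 8 genes Wt1 and Synpo had the highest fold changes, with higher values in ZBP1-KO. Of the 8 genes, 0 were called at an adjusted p under 0.05 in the edgeR quasi-likelihood test, where 0.0134% of all tested genes were called. At an unadjusted p under 0.05, 1 of the 8 (Synpo) was higher in ZBP1-KO and 0 were lower, against 1.91% and 1.97% of all tested genes. The edgeR exact test, the likelihood ratio test, DESeq2 and limma-voom each called 0 of the 8 as well. Both ZBP1-KO libraries lay above both WT libraries for 3 genes (Synpo, Wt1 and Ptpro), a relation met by 16.0% of all tested genes, and below them for 1 gene (Cd2ap), against 16.3%. The median log2 fold change of the 8 genes was 0.18, beside −0.01 for all tested genes. It was 0.07 without WT 2 and 0.09 without ZBP1-KO 2.

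**Figure D1:**
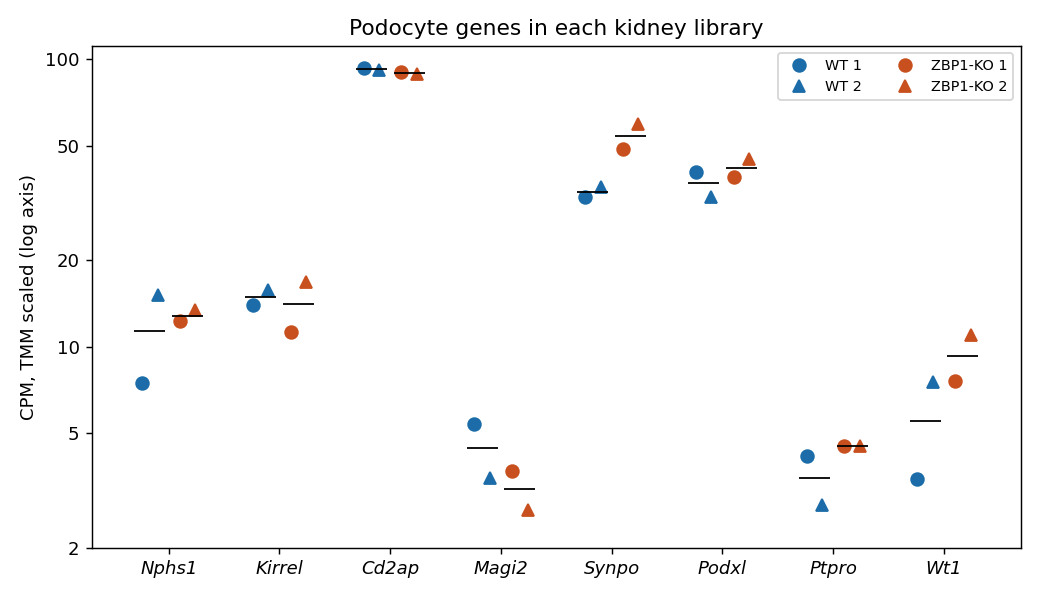
Level of each podocyte gene (CPM, TMM scaled, log axis) in the WT libraries (blue) and the ZBP1-KO libraries (orange), with circles for replicate 1, triangles for replicate 2 and a black line at the mean of the 2 libraries of a genotype. Synpo lies at 33.1 and 36.0 CPM in WT and at 48.8 and 59.5 CPM in ZBP1-KO, whereas the 4 values of Cd2ap run only from 88.5 to 93.0 CPM.

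The membrane proteins of the slit diaphragm came first. Nphs1 encodes nephrin, the protein that spans the gap (ENSMUSG00000006649, chromosome 7, 30458315 to 30487223, plus strand, GENCODE M21 on GRCm38). It had WT levels of 7.48 and 15.1 CPM and ZBP1-KO levels of 12.2 and 13.4 CPM. The ZBP1-KO values thus lay between the WT values, so the spread within WT was wider than the distance between the genotypes. The fit gave a log2 fold change of 0.18 ± 0.37 (SE) and, in edgeR, an adjusted p of 0.999, and it ran from −0.25 without WT 1 to 0.77 without WT 2. The exons of Nphs1 share 597 bases with the antisense gene Nphs1os, which had 0 counts in every library, and 183 bases with the opposite-strand pseudogene Rps12-ps4, which had 39 to 105 counts. The study describes its library protocol as strand-specific, but whether counting used the strand is not given in the sources used here, so reads over these bases may have been assigned elsewhere or dropped.

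Kirrel encodes NEPH1, which pairs with nephrin (ENSMUSG00000041734, chromosome 3, 87078593 to 87174747, minus strand). It was at 13.9 and 15.7 CPM in the WT libraries and at 11.3 and 16.8 CPM in the ZBP1-KO libraries, which enclosed the WT range. At −0.08 ± 0.31 (SE), its log2 fold change had an adjusted p of 0.999 in edgeR. Without ZBP1-KO 1 it was 0.17 and without ZBP1-KO 2 it was −0.40, so its sign depended on which library was used.

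The intracellular partners of nephrin were the next group. Cd2ap encodes an adaptor that ties the nephrin tail to actin and to endocytosis, and unlike most of these genes it is also used by tubular and immune cells (ENSMUSG00000061665, chromosome 17, 42792951 to 42876665, minus strand). It had WT levels of 93.0 and 91.5 CPM and ZBP1-KO levels of 89.8 and 88.5 CPM. The groups did not overlap, but the means, 92.2 ± 1.03 and 89.2 ± 0.89 CPM (SD, n = 2 each), differed little in size. The fit gave a log2 fold change of −0.05 ± 0.18 (SE) and, in edgeR, an adjusted p of 0.999 and a 95% interval from −0.44 to 0.34, the narrowest of the 8 genes.

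Magi2 encodes a membrane-associated scaffold with PDZ domains that binds nephrin (ENSMUSG00000040003, chromosome 5, 19227036 to 20704792, plus strand). It was at 5.39 and 3.51 CPM in the WT libraries and at 3.69 and 2.69 CPM in the ZBP1-KO libraries, with overlapping groups. At −0.47 ± 0.60 (SE), its log2 fold change had an adjusted p of 0.999 in edgeR. It was the lowest of the 8 genes in level per length and in fold change, and the interval from −1.79 to 0.85 covers no change as well as a fall by more than 1 on the log2 scale. Without WT 1 the log2 fold change was −0.14, and without WT 2 it was −0.76.

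Synpo encodes synaptopodin, an actin-associated protein that helps organize the foot process cytoskeleton (ENSMUSG00000043079, chromosome 18, 60593973 to 60660142, minus strand). The WT libraries held 33.1 and 36.0 CPM (411 and 421 counts), and the ZBP1-KO libraries 48.8 and 59.5 CPM (662 and 552 counts). Both ZBP1-KO libraries lay above both WT libraries, with means of 54.1 ± 7.53 and 34.5 ± 2.09 CPM (SD, n = 2 each). The fitted fold was 1.57 and the log2 fold change was 0.65 ± 0.21 (SE), with a 95% interval from 0.20 to 1.10. Synpo ranked 77th of the 14908 tested genes by p, with an unadjusted p of 0.00865, and was not called over all genes (adjusted p = 0.999 in edgeR). With 1 library left out at a time the log2 fold change stayed between 0.49 and 0.78, and the unadjusted p lay above 0.05 without WT 1 (0.0619) and without ZBP1-KO 2 (0.0627).

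Podxl and Ptpro belong to the free surface of the podocyte rather than to the junction. Podxl encodes podocalyxin, the charged sialomucin that keeps foot processes apart, and endothelial cells also make it (ENSMUSG00000025608, chromosome 6, 31519488 to 31563981, minus strand). It had WT levels of 40.6 and 33.2 CPM and ZBP1-KO levels of 38.8 and 44.8 CPM, with overlapping groups. The fit gave a log2 fold change of 0.18 ± 0.21 (SE) and, in edgeR, an adjusted p of 0.999 and an interval from −0.29 to 0.64. Without WT 2 the log2 fold change was 0.03, and without ZBP1-KO 2 it was 0.06.

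Ptpro encodes GLEPP1, a receptor tyrosine phosphatase of the apical membrane that is also known from leukocytes (ENSMUSG00000030223, chromosome 6, 137252319 to 137463233, plus strand). It was at 4.18 and 2.82 CPM in the WT libraries and at 4.50 and 4.52 CPM in the ZBP1-KO libraries, on 33 to 61 counts. Both ZBP1-KO values lay above both WT values, but by less than the WT replicates differed from each other. At 0.36 ± 0.58 (SE), its log2 fold change had an adjusted p of 0.999 in edgeR, and it was 0.10 without WT 2 and 0.67 without WT 1.

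Wt1 encodes a zinc finger transcription factor that maintains the podocyte programme and is also present in the parietal cells of the Bowman capsule (ENSMUSG00000016458, chromosome 2, 105126529 to 105173616, plus strand). The WT libraries held 3.46 and 7.53 CPM (43 and 88 counts), and the ZBP1-KO libraries 7.59 and 11.0 CPM (103 and 102 counts). WT 2 and ZBP1-KO 1 were nearly equal, and the distance between the genotypes rested mainly on WT 1. The log2 fold change of 0.76 ± 0.47 (SE) was the highest of the 8 genes, with an adjusted p of 0.999 in edgeR and an interval from −0.28 to 1.79. It was 0.29 without WT 1 and 1.41 without WT 2, where the unadjusted p was 0.0353.

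**Figure D2:**
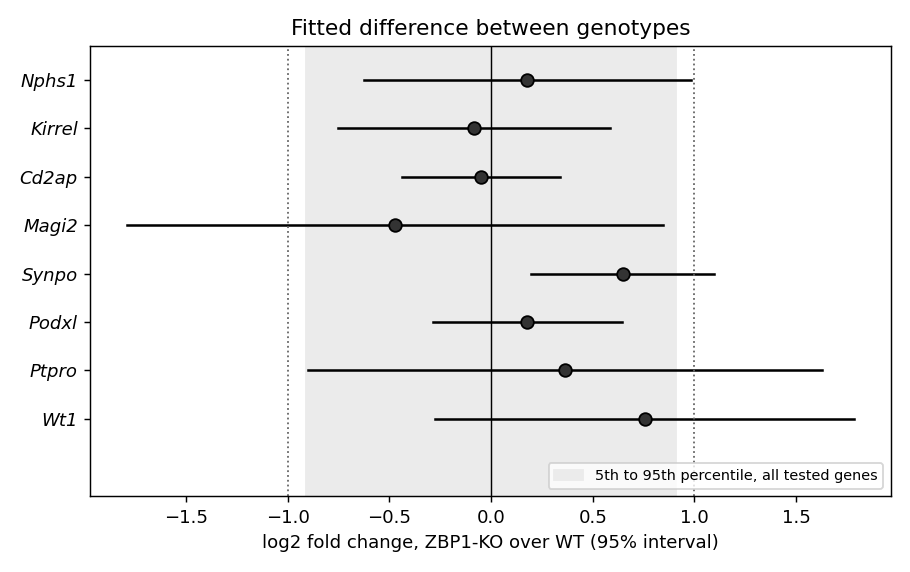
Fitted log2 fold change of ZBP1-KO over WT (points) with its 95% interval (lines) for the 8 podocyte genes. The grey band spans the 5th to 95th percentile of all tested genes (−0.91 to 0.91), and dotted lines mark −1 and 1. Only the interval of Synpo, from 0.20 to 1.10, lies wholly on one side of 0.

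The intervals show what these libraries could resolve. For 4 of the 8 genes (Nphs1, Kirrel, Cd2ap and Podxl) the 95% interval lay wholly between −1 and 1, that is, within a 2-fold change either way. For Synpo and Wt1 a rise of more than 2-fold was inside the interval, as it was for Ptpro, and for Magi2 a fall of that size was. Failing the test therefore does not show that Magi2, Ptpro or Wt1 were alike in both genotypes.

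Since WT1 is a transcription factor whose zinc fingers bind G-rich sites, the 250 bases before the RefSeq start sites (GRCm38.p6) were searched on both strands for the letters GNGTGGGNG, a form chosen with the windows in view. Windows were at hand for 5 of the 8 genes, 6 windows in all. Of these 6 windows 3 held a match (in Nphs1, Cd2ap and Magi2), beside 12.7% of all 32851 windows of this length. As the form was chosen with the windows in view, these shares cannot test whether matches are more frequent in the podocyte genes. The stricter form GCGTGGGNG, which is contained in the former, was found for 1 gene, Magi2, and in 1.65% of all windows. The stretches around the matches are shown with the 9 matching bases in capitals, each read 5′ to 3′ on the strand of its gene. Of the factor WT1 itself, only the transcript was measured. The match is on the gene's own strand in Nphs1 and on the opposite strand in the others, and it begins 227 bases before the start in Nphs1, 119 in Magi2 and 42 in Cd2ap. The RefSeq starts used for all 3 genes lie inside the GENCODE spans of the genes. The stretches of Nphs1 and Cd2ap lie wholly inside these spans, and that of Magi2 lies before its span.
Nphs1, plus strand, chr7:30459808-30459864: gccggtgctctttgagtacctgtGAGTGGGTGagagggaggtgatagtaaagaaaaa
Magi2, plus strand, chr5:19226902-19226960: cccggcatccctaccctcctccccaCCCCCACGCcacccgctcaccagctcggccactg
Cd2ap, minus strand, chr17:42876433-42876491: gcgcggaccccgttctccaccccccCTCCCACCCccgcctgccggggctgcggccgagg
A match describes letters and not a bound site, and it does not tell which factor could bind there. Beside a Wt1 log2 fold change of 0.76, the genes with a match had log2 fold changes of 0.18 (Nphs1), −0.47 (Magi2) and −0.05 (Cd2ap), and those with a window but no match had −0.08 (Kirrel) and 0.36 (Ptpro).

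Levels were compared between genes per length, as TPM over merged exons. Averaged over the 4 libraries, Podxl was highest with 10.7 TPM, followed by Cd2ap with 8.57, Synpo with 6.99, Kirrel with 2.85, Nphs1 with 2.71, Wt1 with 1.77, Ptpro with 0.90 and Magi2 with 0.51 TPM. The ranges of neighbours in this order overlapped, except between Synpo, with at least 5.06 TPM in every library, and Kirrel, with at most 3.04. Podxl, Cd2ap and Synpo thus stood apart from the other 5 genes. Within every library Podxl was above Cd2ap and Synpo, and Ptpro above Magi2, whereas Cd2ap and Synpo, and likewise Kirrel and Nphs1, changed places between libraries. TPM values include the mitochondrially encoded genes in their scale, and ZBP1-KO 1, with the smallest share of those, had the highest TPM of Podxl, Cd2ap and Synpo.

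Levels in CPM depend on library scaling, which a share within a library does not. Each gene was therefore expressed as a percentage of the summed counts of the 8 genes in its own library. Synpo made up 16.4% (95% exact binomial interval 15.01 to 17.95) and 17.5% (16.03 to 19.11) of them in WT, and 22.5% (21.03 to 24.08) and 24.7% (22.88 to 26.49) in ZBP1-KO. The share of Cd2ap was 46.2% and 44.5% in WT and 41.4% and 36.7% in ZBP1-KO. Podxl held 16.2% to 20.2% with no separation of the genotypes. These intervals cover counting error only, and shares that sum to 100% must move against each other. Such shares can still move with the share of glomeruli in the tissue, because tubular and immune cells also use Cd2ap.

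As sums, the 8 genes reached 201 and 205 CPM in the WT libraries and 217 and 241 CPM in the ZBP1-KO ones, a ratio of means of 1.13. Without Cd2ap the other 7 reached 108 and 114 CPM in the WT libraries and 127 and 153 CPM in the ZBP1-KO ones, a ratio of 1.26. Both sums were higher in each ZBP1-KO library than in each WT library. Without ZBP1-KO 2, the log2 ratio of the sum over the 8 genes was 0.085 in place of 0.17, so the higher sum rested in large part on that library.

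The wider podocyte programme was read from 4 lists with 48 genes, of which 46 were tested. In the edgeR quasi-likelihood test 0 were called higher and 0 lower, as in each of the other tests, and at an unadjusted p under 0.05, 1 was higher and 0 were lower. Both ZBP1-KO libraries lay above both WT libraries for 7 of the 46 (15.2%) and below them for 4 (8.70%), beside the 16.0% and 16.3% of all tested genes. The median log2 fold change was 0.08 over these 46 genes. It ran from −0.04 without ZBP1-KO 2 to 0.24 without ZBP1-KO 1. Some list genes stood far above Nphs1 (mean 11.3 CPM in WT), such as Actn4 with 151 CPM, and others below it, such as Crb2 with 2.74 CPM. How much of each level came from podocytes was not measured, so the medians describe whole kidney.

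Among 12 tested partners of the slit diaphragm, 6 had a positive and 6 a negative log2 fold change, with a median of −0.04. Crb2, a polarity protein needed for the foot process junction, was at 2.57 and 2.91 CPM in the WT libraries and at 0.81 and 1.08 CPM in the ZBP1-KO libraries, on 32 and 34 against 11 and 10 counts. Its log2 fold change of −1.53 ± 0.95 (SE) was not called (adjusted p = 0.999, edgeR). The kinase gene Fyn, whose product phosphorylates nephrin, had a log2 fold change of −0.42 ± 0.27 (SE), and the scaffold gene Magi1 one of −0.34 ± 0.25 (SE), each with both ZBP1-KO values below both WT values. Kirrel2 and the channel gene Trpc6 were below the filter, with 0 to 6 and 0 to 28 counts, and were not tested.

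The foot process cytoskeleton list, 12 tested genes, had a median of −0.02 and values from −0.29 to 0.30. None of its genes had both ZBP1-KO libraries above both WT libraries. Actn4, the actin crosslinker of foot processes, had WT levels of 139 and 162 CPM and ZBP1-KO levels of 118 and 139 CPM, a log2 fold change of −0.23 ± 0.19 (SE). For Rhpn1, Clic5 and Nes the log2 fold changes were 0.30, 0.28 and −0.14, with overlapping groups. Synpo thus had a higher log2 fold change than any tested gene of the list that shares its role, a difference that was not tested.

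Of 7 podocyte transcription factor genes, 6 had a positive log2 fold change, beside 7366 of all 14908 tested genes. The median of the 7 was 0.47, and none was called. Both ZBP1-KO libraries lay above both WT libraries for 3 of the 7, beside 16.0% of all tested genes. Foxc1 was at 17.1 and 19.6 CPM in the WT libraries and at 27.9 and 24.02 CPM in the ZBP1-KO libraries, a log2 fold change of 0.50 ± 0.24 (SE, adjusted p = 0.999 in edgeR). Lmx1b, the nail-patella syndrome gene, had 18 and 9 counts in the WT libraries, beside 33 and 27 in the ZBP1-KO ones, a log2 fold change of 1.26 ± 0.94 (SE). Foxd1, known mainly from stromal progenitors, was covered by 8 and 9 counts in WT, beside 20 in each ZBP1-KO library. Foxc2 had a log2 fold change of 0.47 ± 0.50 (SE) with overlapping groups.

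Of 15 other podocyte genes, 12 had a positive log2 fold change, beside 7366 of all 14908 tested genes, and the median of the 15 was 0.21. Sema3g, a semaphorin made by podocytes and by arterial endothelium, had WT levels of 20.7 and 23.9 CPM and ZBP1-KO levels of 26.0 and 45.5 CPM. Its log2 fold change was 0.68 ± 0.28 (SE), and edgeR gave it an unadjusted p of 0.0316 and an adjusted one of 0.999. ZBP1-KO 2 alone was far above the WT libraries. The cell cycle inhibitor gene Cdkn1c was at 20.8 and 23.4 CPM in the WT libraries and at 29.0 and 27.0 CPM in the ZBP1-KO libraries. Col4a3 and Col4a4, the basement membrane collagens of the filter, had log2 fold changes of 0.30 and 0.31, and for Col4a4 the groups did not overlap.

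**Figure D3:**
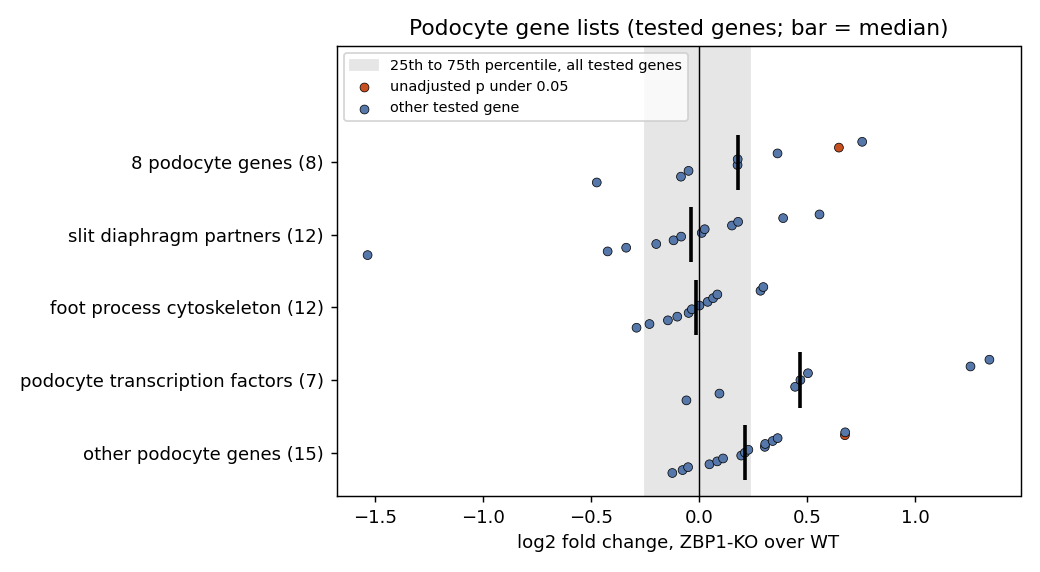
Log2 fold change of ZBP1-KO over WT for each tested gene of the 8 podocyte genes and of the 4 podocyte lists, with the number tested in brackets, the median as a black bar and the 25th to 75th percentile of all tested genes (−0.25 to 0.23) in grey. Orange points have an unadjusted p under 0.05 (Synpo and Sema3g). The medians run from −0.04 for slit diaphragm partners to 0.47 for transcription factors.

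By profile over the 4 libraries, the genes nearest to the mean of the 8 were Dzip1l, Dicer1, Scpep1, Ppp2r2a and Zfpm1, with root mean square differences of 0.012 to 0.024 on the log2 CPM scale. That mean profile was −0.16 and −0.05 in WT and 0.03 and 0.18 in ZBP1-KO. The 8 genes themselves lay farther from it, from 0.15 for Podxl to 0.48 for Wt1, and 1742 of 14201 other genes lay nearer than Podxl. With 4 libraries and a shallow profile, likeness of this kind is common.

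Other cells of the kidney were measured beside the podocyte genes. Over 8 glomerular endothelial markers, the summed level was 260 and 323 CPM in the WT libraries and 299.5 and 288 CPM in the ZBP1-KO ones, with overlap, and Plat was the most abundant. The 6 mesangial markers summed to 160 and 218 CPM in the WT libraries, beside 152 and 163 CPM in the ZBP1-KO ones. All 6 log2 fold changes were negative, as were 7542 of all 14908 tested genes, and none was called. At an unadjusted p under 0.05 in edgeR, 1 of the 6 (Itga8, log2 fold change −0.90) was lower, against 1.97% of all tested genes. Averaged over the 6, log2 CPM minus each gene's mean over the libraries was 0.10 and 0.19 in WT. It was −0.20 and −0.10 in ZBP1-KO, without overlap. The 4 parietal epithelial markers summed to 72.6 and 89.7 CPM in the WT libraries, beside 83.7 and 75.1 CPM in the ZBP1-KO ones. Neither the endothelial nor the parietal sum separated the genotypes. Of the 8 endothelial markers 1 (Flt1) had both ZBP1-KO values above both WT values, and of the 4 parietal markers 0 had. That relation was met by 16.0% of all tested genes. Whether the share of glomeruli differed between the libraries was not tested.

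Tubular markers differed between libraries, within as well as between genotypes. The 8 proximal tubule markers summed to 1521 and 1723 CPM in the WT libraries, beside 1098 and 1697 CPM in the ZBP1-KO ones, and the phosphate transporter gene Slc34a1 lay at 529 CPM in ZBP1-KO 1 and at 923 to 1032 CPM in the other libraries. The 6 markers of the thick limb and distal tubule summed to 1637 and 1702 CPM in the WT libraries, beside 2006 and 1675 CPM in the ZBP1-KO ones. The 6 collecting duct markers summed to 1198 and 1292 CPM in the WT libraries, beside 1004 and 789 CPM in the ZBP1-KO ones. Most of this sum was Aqp2, whose mean over the WT libraries was 982 CPM against 1245 CPM for all 6. Of the 5 tested, 3 had a negative and 2 a positive log2 fold change, with a median of −0.15. The water channel genes Aqp2 and Aqp3 were lower at an unadjusted p under 0.05 in edgeR, against 1.97% of all tested genes, and 0 were called. The part of such differences in the podocyte values was not tested.

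Markers of fat and immediate-early genes also lay apart between the genotypes, a relation met in either direction by 16.0% (higher) and 16.3% (lower) of all tested genes. All 4 tested fat genes were higher in both ZBP1-KO libraries, with Lep at 0 in every library, and their sum was 78.6 and 104 CPM in the WT libraries and 210 and 170 CPM in the ZBP1-KO ones. Of these Cfd was called (adjusted p = 0.00889, edgeR). All 8 immediate-early genes were lower in both ZBP1-KO libraries. At an unadjusted p under 0.05 in edgeR, 7 of the 8 were lower, against 1.97% of all tested genes, and 0 were called. Their sum was 405 and 131 CPM in the WT libraries, beside 88.6 and 90.5 CPM in the ZBP1-KO ones. The highest of these sums by far was that of WT 1. The 8 leukocyte markers summed to 327 and 206 CPM in the WT libraries, beside 302 and 302 CPM in the ZBP1-KO ones, with overlap. Of the 6 tested, Ptprc, Adgre1 and C1qa had both ZBP1-KO values above both WT values, 0 had both below, and 3 overlapped. The log2 fold change was positive for 5 and negative for 1, with a median of 0.30 and none called. Averaged over all 8 markers, log2 CPM minus each gene's mean over the libraries was 0.007 in WT and −0.007 in ZBP1-KO, with overlap. The B cell gene Cd79a, too low to be tested, had 19 and 6 counts in WT and was at 0 in both ZBP1-KO libraries. Whether any of these bears on Synpo or Wt1 was not tested.

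**Figure D4:**
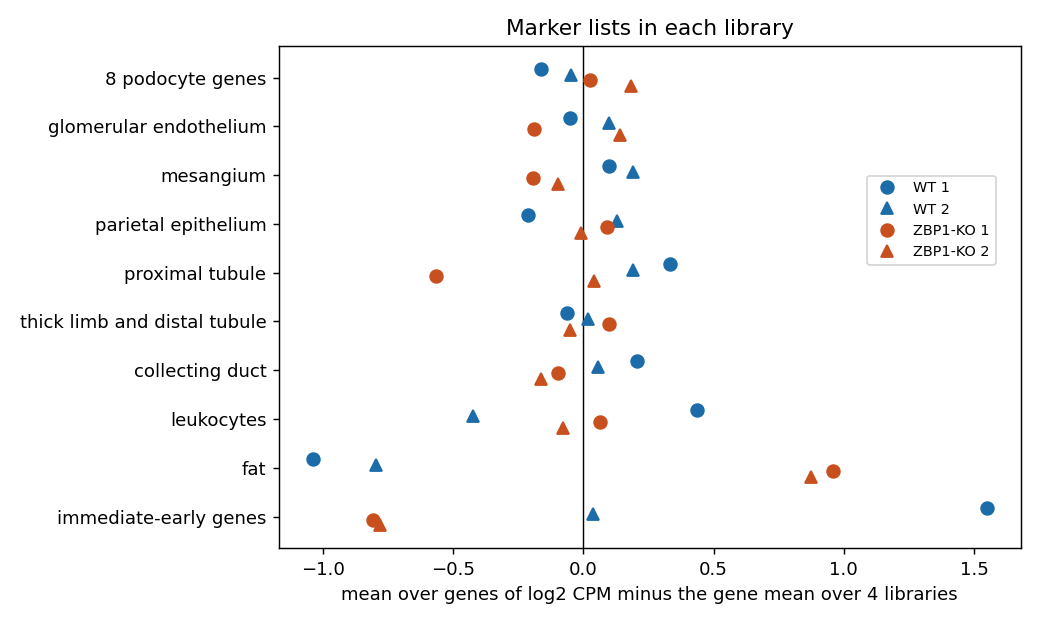
Score of the 8 podocyte genes and of 9 marker lists in each library, the mean over the genes of log2 CPM minus the gene's mean over the 4 libraries (symbols as in the plot of levels by library). The podocyte score runs from −0.16 in WT 1 to 0.18 in ZBP1-KO 2, a narrow span beside fat (−1.04 to 0.96) and immediate-early genes (−0.81 to 1.55).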

How the data were processed

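Kidney RNA of WT and ZBP1-KO mice, 2 libraries each, was analysed, grouped by sample title. The authors enriched polyadenylated RNA, trimmed reads with Trimmomatic, aligned them with HISAT2 (mm10) and counted uniquely mapped read pairs with featureCounts. The deposited values are raw counts per Ensembl gene. Versions, annotation release and strand setting are not given in the sources used here. Symbols, positions and exon lengths came from GENCODE M21 (GRCm38), which held 54495 of 54532 IDs.

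Genes were tested in edgeR 4.0.16 (R 4.3.3) by the two-sided quasi-likelihood F test after filterByExpr and TMM, with genotype as the only term and Benjamini-Hochberg adjustment over 14908 genes. The edgeR pipeline was tested on simulated data. SE was derived from the fold change and its F statistic, and intervals use the test's degrees of freedom. Scores used log2 CPM with a prior count of 2. Alternatives were other scalings, filters and tests (DESeq2 1.42.0, limma 3.58.1), a replicate block, and each library left out. Exact permutation tests were not used because 2 against 2 libraries cannot reach the threshold. The 8 genes and the lists were chosen with earlier results of these data known. Named genes were the 8, Zbp1, the 4 genes with the smallest p per podocyte list, called genes and the 5 nearest profiles. The rule also took the most abundant marker per list, which was named for glomerular endothelium, proximal tubule and collecting duct only. A gene that the rule also takes is not reported here. Other genes (Kirrel2, Trpc6, Lep, Cd79a, Ptprc, Adgre1, C1qa, Aqp3, Flt1, Itga8) were named after their values were seen.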

Additional observations from a re-analysis of the deposited data

How the results depend on the processing

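The count of 0 called genes held for the 8 podocyte genes and for the 4 podocyte lists in edgeR under every alternative tried, with DESeq2 and limma-voom included, and 1 of the 8 was at an unadjusted p under 0.05 in each setting that used all 4 libraries. Over all genes, the 2 calls became 41 with all genes of at least 1 count, where more genes entered the test. They became 26 with the likelihood ratio test, 14 with the exact test, 9 with DESeq2, 7 with limma-voom and 4 without mitochondrially encoded genes. The cause of these changes was not tested. A replicate block gave 11 calls over all genes and 0 among the podocyte genes. Libraries of 1 number did not deviate together (correlation 0.0040 over the tested genes) and share only a number. With 1 library left out, the lone library being assumed to vary like the other group, 0 to 37 genes were called, and the summed level of the 8 genes had a log2 ratio of 0.085 to 0.24.

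Of 112 values of the 8 genes under alternatives, 109 kept their sign and their side of the threshold. The others had 1 library left out: Kirrel ran from −0.40 to 0.17, with 0.0026 without WT 2, and Nphs1 from −0.25 to 0.77. None of the 8 was near the threshold (adjusted p = 0.999 each, edgeR quasi-likelihood test), so keeping its side was no check. Most alternatives refitted the same 4 libraries, so the count of 109 is no measure of stability between animals. At 25 to 67 counts for Magi2 and 33 to 61 for Ptpro, a 2-fold difference was not excluded.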
